A study of Mus musculus with 96 samples.

Results

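H3K4me3 is the trimethyl mark on lysine 4 of histone H3, which sits around the start sites of genes that are active or ready to be transcribed. The H3K4me3 table of NeuN- hippocampal nuclei lists 3270 windows of 401 bp, and 270 of them (8.26%) overlapped none of the 12628 windows of the H3K4me3 table of NeuN+ nuclei by even 1 bp. These 270 windows are the subject here. NeuN is a nuclear protein of most neurons, so sorting on it separates a neuronal from a mainly glial fraction, although the NeuN- fraction also holds other cell types. Hippocampi came from C57BL/6N male mice of 6 months, with the nuclei of 5 mice of one genotype pooled into each sample. The genotypes were WT, Mutyh-/-, Ogg1-/- and Mutyh-/-xOgg1-/- (DKO), which lack the glycosylase MUTYH, the glycosylase OGG1 or both, with 3 libraries per genotype in each table. OGG1 removes oxidised guanine from DNA and MUTYH removes adenine paired with it. H3K27me3, the mark laid by Polycomb repressive complex 2, and its subunit Suz12 were profiled in the same fractions. Values are reads per window divided by one factor per library, called normalised reads below. The pools are the replicates, and whether libraries with one number share nuclei is not stated in the sources used here. The p-values therefore measure the spread between these pools. The 12 H3K4me3 NeuN- libraries held 39320 to 120004 reads in windows, 2.13% to 3.65% of them in the 270 windows, and those of NeuN+ nuclei held 96023 to 548706.

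Oligodendrocytes form myelin, and the transcription factors Olig1, Nkx6-2 and Sox8 are among the markers of their lineage. Astrocytes buffer ions and transmitters and are marked, among others, by the receptor Fgfr3 and the adhesion molecule Hepacam. At CpG-rich promoters H3K4me3 is deposited by complexes that bind unmethylated CpG, so the number of CpG dinucleotides separates typical promoter windows from other sequence. The stretches below, from GRCm38 and along the strand of the annotated gene, were chosen because they show the different kinds of sequence among the 270 windows. The first ones belong to the windows at glial marker genes. The last ones belong to windows outside promoters that passed an unadjusted threshold, defined below, in each knockout against WT. Capitals mark CpG. Annotated untranslated exon parts were left out. Olig1 (chr16:91270391-91270656, plus strand, coding sequence) held 23 CpG in 266 bases. Nkx6-2 (chr7:139582216-139582515, minus strand, coding sequence) held 32 CpG in 300 bases. Sox8 (chr17:25569792-25570091, minus strand, within the gene and outside coding sequence) held 5 CpG. Fgfr3 (chr5:33722502-33722801, plus strand, within the gene) held 21. Hepacam (chr9:37368287-37368586, plus strand, within the gene and outside coding sequence) held 3. The intergenic stretch assigned to Polr3k, a subunit of RNA polymerase III (chr2:181917527-181917826, plus strand), held 3, and that in intron 1 of Fbxw4 (chr19:45650044-45650343, minus strand), an F-box gene, held 2.
Olig1: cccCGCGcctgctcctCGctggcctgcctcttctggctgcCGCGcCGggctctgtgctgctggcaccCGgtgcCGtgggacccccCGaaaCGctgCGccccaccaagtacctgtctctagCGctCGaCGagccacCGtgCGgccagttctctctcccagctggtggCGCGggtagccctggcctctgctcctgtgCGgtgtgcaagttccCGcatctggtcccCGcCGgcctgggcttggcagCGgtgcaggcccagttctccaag
Nkx6-2: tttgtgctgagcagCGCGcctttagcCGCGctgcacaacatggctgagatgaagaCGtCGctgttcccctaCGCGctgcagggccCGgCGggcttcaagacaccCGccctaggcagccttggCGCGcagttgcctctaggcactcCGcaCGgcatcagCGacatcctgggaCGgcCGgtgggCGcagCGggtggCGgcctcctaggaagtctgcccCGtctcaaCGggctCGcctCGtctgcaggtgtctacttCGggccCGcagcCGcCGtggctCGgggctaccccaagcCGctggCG
Sox8: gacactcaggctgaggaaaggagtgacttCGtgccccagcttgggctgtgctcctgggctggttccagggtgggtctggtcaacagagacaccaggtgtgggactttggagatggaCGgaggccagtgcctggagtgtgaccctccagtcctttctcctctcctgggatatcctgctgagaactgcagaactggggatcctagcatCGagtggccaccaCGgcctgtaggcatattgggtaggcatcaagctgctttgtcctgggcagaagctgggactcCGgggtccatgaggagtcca
Fgfr3: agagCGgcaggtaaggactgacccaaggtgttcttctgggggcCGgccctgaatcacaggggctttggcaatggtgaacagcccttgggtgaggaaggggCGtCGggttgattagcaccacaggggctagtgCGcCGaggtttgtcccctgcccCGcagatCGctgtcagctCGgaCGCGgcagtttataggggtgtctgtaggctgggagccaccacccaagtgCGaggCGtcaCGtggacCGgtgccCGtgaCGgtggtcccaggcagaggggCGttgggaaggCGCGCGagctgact
Hepacam: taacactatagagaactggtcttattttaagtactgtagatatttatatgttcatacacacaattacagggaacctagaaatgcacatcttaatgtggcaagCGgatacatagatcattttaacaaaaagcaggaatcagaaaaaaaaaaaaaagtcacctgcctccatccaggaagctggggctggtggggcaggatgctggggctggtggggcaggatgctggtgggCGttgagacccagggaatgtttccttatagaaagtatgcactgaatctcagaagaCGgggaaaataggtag
Polr3k: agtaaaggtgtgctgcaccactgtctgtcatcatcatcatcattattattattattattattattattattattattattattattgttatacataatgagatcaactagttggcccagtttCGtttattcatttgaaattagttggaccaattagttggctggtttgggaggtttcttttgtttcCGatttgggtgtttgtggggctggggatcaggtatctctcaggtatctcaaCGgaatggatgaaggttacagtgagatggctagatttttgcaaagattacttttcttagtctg
Fbxw4: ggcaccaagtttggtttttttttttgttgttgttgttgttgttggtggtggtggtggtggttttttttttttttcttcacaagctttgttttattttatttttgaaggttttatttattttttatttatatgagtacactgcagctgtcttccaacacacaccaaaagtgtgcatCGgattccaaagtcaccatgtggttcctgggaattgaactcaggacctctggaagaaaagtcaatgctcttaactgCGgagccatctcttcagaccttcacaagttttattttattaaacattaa

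The data did not bear out a reading of all 270 windows as H3K4me3 that neurons lack, and they are therefore called here windows without a neuronal overlap. For 212 of the 270, the annotated gene had another window in the NeuN+ table. The gap to the nearest NeuN+ window had a median of 774.5 bp, with 143 windows within 1 kb, 30 between 1 and 5 kb away and 97 beyond 5 kb. In 57 windows the gap was at most 100 bp. The closest windows just inside the rule lay 3 bp from a neuronal window at Snrpd3 and Eme2 and 4 bp at Sox4, with means of 5.46, 11.2 and 8.99 normalised reads. Just outside the rule, Erf overlapped by 1 bp and Eya4 and Syvn1 by 4 bp, with means of 10.5, 7.38 and 8.17. A window that was not called in NeuN+ nuclei has no value there, so the level of the mark in neurons at these sites is not known.

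**Figure D1:**
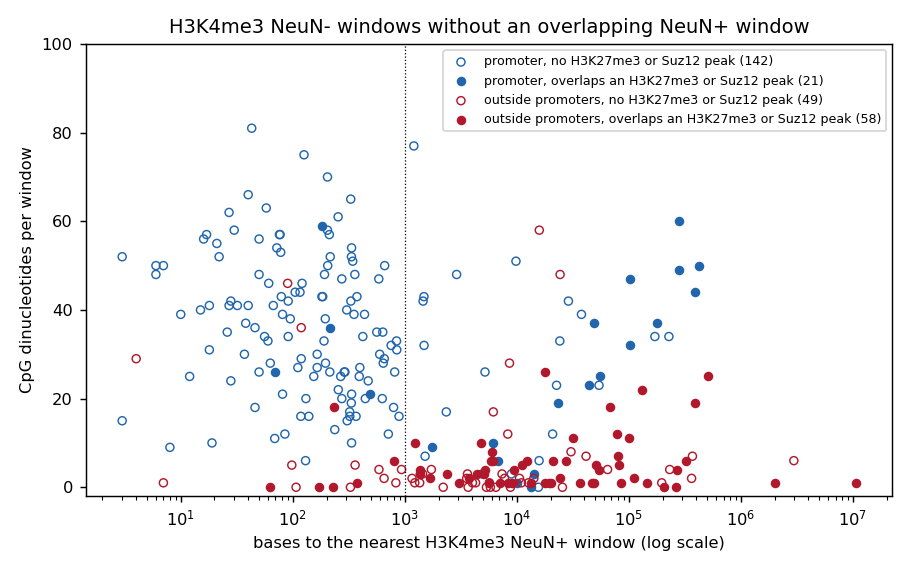
Each of the 270 windows is a point, with the bases to the nearest H3K4me3 NeuN+ window on a log axis and the number of CpG dinucleotides in the window on the other axis. Blue marks promoter windows, red marks windows outside promoters, and filled points overlap an H3K27me3 or Suz12 peak of either fraction. The dotted line stands at 1 kb, with 125 promoter windows to its left and most CpG-poor red points to its right.

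By place, the windows fell into 3 sets. Promoter windows, within 2 kb of a start site, made up 154 and 9 of them at up to 1 kb and at 1 to 2 kb, against 3026 and 29 of all 3270 windows. Of the promoter windows, 125 lay within 1 kb of a neuronal window and 38 did not. The other 107 windows lay outside promoters, 72 of them in distal intergenic sequence (26.7% of the members, against 4.01% of all windows), 17 in introns, 9 in exons and 6 and 3 in 3' and 5' untranslated parts.

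The 125 promoter windows next to a neuronal window lay beside neuronal windows, mostly of their own gene, and were rich in CpG. They stood a median of 72 bp from the annotated start site and 154 bp from the neuronal window. In 106 of the 125, the neighbouring neuronal window was assigned to the same gene. That neighbour lay downstream along the gene in 67 and upstream in 58. They held a median of 36 CpG (quartiles 25 and 48), and 66.8% of their bases were G or C. The 2892 promoter windows with a neuronal overlap held a median of 44 CpG and 70.8% G or C. The transcriptional regulators Ski and Myc belonged to this set, as did Ptch1, the Hedgehog receptor, and Fbxo11, an F-box gene whose window had the highest mean of the set at 14.8 normalised reads.

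The 38 promoter windows farther from a neuronal window stood apart from neuronal windows, at times by their gene as well. In 19 of the 38, the gene had no window at all in the NeuN+ table. They included the transcription factors Olig1 and Nkx6-2 of oligodendrocytes, Nkx2-2os beside the oligodendrocyte gene Nkx2-2, Pax6 of neural progenitors, Tcf7l2 of the Wnt pathway, and the homeobox factor Gsc and Dmrta1. The Wnt receptor Fzd2, the calcium channel Itpr3 and Unc93b1, which brings Toll-like receptors to endosomes, were in the same group. The gap to the nearest neuronal window was 102038 bp at Olig1, 101637 bp at Nkx6-2, 227820 bp at Pax6 and 426394 bp at Tcf7l2. Tcf7l2 had the second highest mean of these 19 genes at 11.3 normalised reads, after Git1 at 13.4, whose neuronal neighbour was 2900 bp away. Itpr3 had the lowest at 4.90. The 38 windows also took in 4 at Sfi1 and 1 each at Dux and Mir101c, and these windows lie within 15 kb of a neuronal window.

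The 107 windows outside promoters were of another kind. They held a median of 3 CpG (quartiles 1 and 6) and 41.9% G or C, and 31 of them had at least 50% of bases masked as repeats, against 65 of all 3270 windows. In 66 of the 107 (61.7%), fewer than 90% of the window's 36-base words occurred once on the assembled chromosomes, a share reached by 187 of all 3270 windows (5.72%). The 108 windows outside promoters that did have a neuronal overlap were alike in this, with 64 (59.3%) below 90% and a median of 10 CpG. At the sequenced read length of 75 bases most windows were unique, and 11 of the 270 had fewer than 50% unique words.

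Many of the windows outside promoters lay in runs. The largest run, between 145436113 and 147783638 on chromosome 4, held 27 of the 270 windows, 37 windows of the NeuN- table and 25 of the NeuN+ table. Its windows were assigned to the zinc finger genes Zfp982, Zfp979, Zfp981, Zfp992, Zfp984 and Zfp985 and their neighbours, and only 1 of the 27 was a promoter window. A run of 8 near the start of chromosome 4 was assigned to the vomeronasal receptors Vmn1r2 and Vmn1r3, and a run of 8 on chromosome 13 to the prolactin family genes Prl2c2 and Prl2c3. On chromosome 11, 7 windows at Sfi1 and Pisd-ps1 had no NeuN+ window among them, and all 7 overlapped an H3K27me3 or Suz12 peak. The 6 windows near the start of chromosome 9, assigned to Mir101c, had a median of 6.69% unique 36-base words. In all, chromosome 4 held 51 of the 270 windows (18.9%), against 7.92% of all windows of the table.

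The strongest windows of the 270 came mostly from such sequence. The highest mean was 96.8 normalised reads, in a window assigned to Lrrc4c on chromosome 2 (chr2:98663721-98664121, exon 3 of 4 of an annotated transcript). Next came 3 windows assigned to Mir101c, with means of 77.1, 64.6 and 53.3, then Kctd16 with 47.0 and another Mir101c window with 33.6. The 6 Mir101c windows, the Lrrc4c window and one at 2210408I21Rik on chromosome 13 formed a group in which each shared at least 10 words of 36 bases with another. The longest identical stretch was 124 bases between Mir101c windows and 83 bases between one of them and 2210408I21Rik, so some reads of 75 bases cannot be assigned to 1 of these windows. For Lrrc4c it was 60 bases, shorter than a read. Among the 10 highest means, Fbxo11 was the only promoter window of unique sequence. The median over the 270 windows was 6.97 normalised reads, against 10.3 for the 3000 windows with a neuronal overlap.

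Marker genes give a check of the fraction. Of 26 neuronal marker genes, 24 had a NeuN+ window and 1 had a NeuN- window. Of 25 oligodendrocyte genes, 6 had a NeuN- window and 8 a NeuN+ window, and of 34 astrocyte genes the numbers were 6 and 17. Among 34 microglial genes 1 had a NeuN- window and 5 a NeuN+ window. For 31 endothelial genes the numbers were 1 and 12, and for 11 genes of oligodendrocyte precursors 1 and 6. No NeuN- window fell on the 15 mural, 15 fibroblast and meningeal or 12 ependymal and choroid plexus genes, of which 3 each had a NeuN+ window. The NeuN- table thus lacked most neuronal markers but also most markers of the glial and vascular types. Of all these lists, 5 genes had a window without a neuronal overlap: Olig1, Nkx6-2 and Sox8 of the oligodendrocyte list and Fgfr3 and Hepacam of the astrocyte list. In bulk samples, fewer cells of a type and less of the mark per cell cannot be told apart. Neither can be told from the smaller number of reads and windows in the NeuN- table.

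At Olig1 the 12 values were 6.91, 7.09 and 3.55 normalised reads in WT, 15.2, 12.1 and 3.25 in Mutyh-/-, 5.94, 12.0 and 14.2 in Ogg1-/-, and 8.36, 4.29 and 6.70 in DKO. The genotypes overlapped, and the read counts behind these values ran from 2 to 16. At Nkx6-2 the values were 4.15, 18.9 and 4.73 in WT, 16.2, 7.78 and 6.503 in Mutyh-/-, 7.92, 3.19 and 17.04 in Ogg1-/-, and 15.8, 5.72 and 5.59 in DKO. Each genotype had 1 library well above its other two, so the spread within genotypes exceeded any difference between them. At Sox8, whose window lay 130 bp from a neuronal window assigned to Cerox1, the means were 12.9 ± 8.75 in WT, 7.23 ± 0.785 in Mutyh-/-, 6.65 ± 6.86 in Ogg1-/- and 5.36 ± 3.11 in DKO (SD, n = 3).

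Fgfr3, 70 bp from a neuronal window of the same gene, held 8.30, 4.73 and 4.73 normalised reads in WT and 1.98, 3.19 and 2.84 in Ogg1-/-. The Ogg1-/- libraries all lay below the WT libraries, as they did, in either direction, at 8.29% of all windows, and the log2 fold change of −0.89 ± 0.96 (SE) had an adjusted p of 0.999 by limma. Hepacam was low throughout, between 0 and 13.01. In none of the 3 contrasts was a window at these 5 genes a differentially enriched region (DER), defined below.

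**Figure D2:**
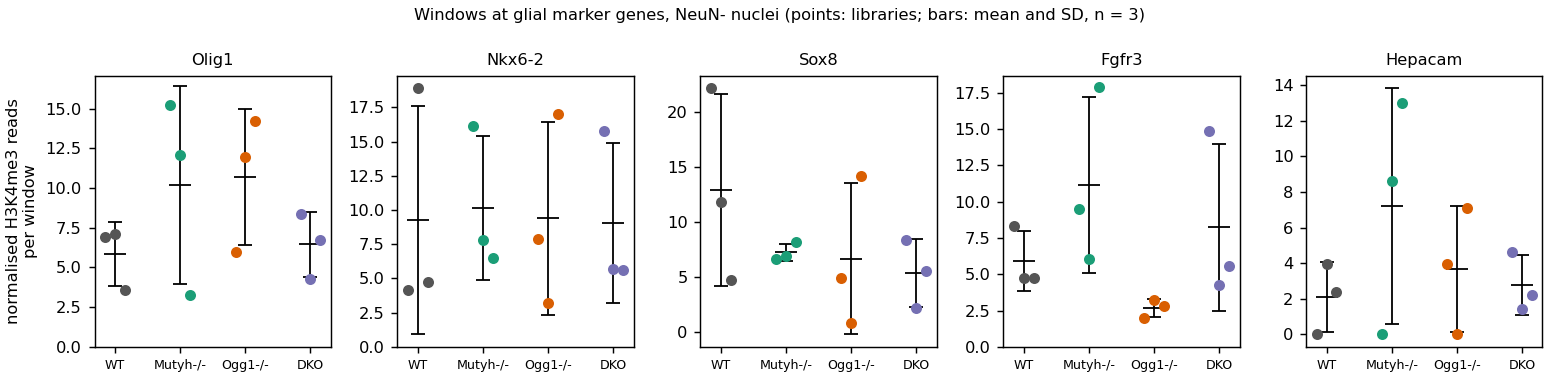
Normalised H3K4me3 reads per 401-bp window in NeuN- nuclei at the 5 glial marker genes with a window without a neuronal overlap. Points are libraries, bars the mean and SD of 3 libraries, and each panel has its own scale. Each knockout overlaps WT in every panel, except Ogg1-/- at Fgfr3, whose libraries at 1.98 to 3.19 lie below WT.

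H3K27me3 and Suz12 peaks were called independently of the rule. Of the 270 windows, 79 (29.3%) overlapped a peak of at least 1 of the 4 H3K27me3 and Suz12 tables, against 119 of the 3000 windows with a neuronal overlap (3.97%). For H3K27me3 there were 34 with a peak of the NeuN+ table and 26 with one of the NeuN- table, and for Suz12 the numbers were 48 and 45. The share depended on the set. It was 4 of the 125 promoter windows next to a neuronal window, 17 of the 38 other promoter windows and 58 of the 107 windows outside promoters. The 108 windows outside promoters with a neuronal overlap had a similar share, 67 (62.0%).

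Among the 38 promoter windows, the 17 with an overlapping peak included those of the transcription factors Nkx6-2, Olig1, Gsc and Tcf7l2. They also included windows of other kinds of genes, at Shisa3, Zfp36l2, Fzd2, Lypd3, Gm4675, Mir101c and Sfi1. Nkx6-2 overlapped a peak of H3K27me3 and of Suz12 in NeuN+ nuclei, with means of 14.0 and 22.3 normalised reads, and none in NeuN- nuclei. Olig1 overlapped a Suz12 NeuN+ peak with a mean of 11.2. Shisa3 overlapped Suz12 in NeuN+ nuclei with a mean of 16.4 and H3K27me3 in NeuN- nuclei with a mean of 8.28. Gsc overlapped Suz12 in both fractions, at 21.2 in NeuN+ and 10.1 in NeuN-. Zfp36l2 overlapped H3K27me3 and Suz12 of NeuN+ nuclei, at 15.5 and 23.3, and Tcf7l2 a Suz12 peak of NeuN+ nuclei at 13.4. The tables were normalised separately, so levels are not comparable between fractions or marks.

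Outside promoters, 10 of the 107 windows were called in all 4 tables, among them those at Kctd16, Polr3k, Mir6356, Gm8579, Lars2 and Slc30a4. Some of them were among the strongest peaks of their tables. The Kctd16 peak ranked 13th of 4132 by mean in H3K27me3 NeuN+ and 22nd of 1698 in H3K27me3 NeuN-. Lars2 ranked 28th in both. The Fbxw4 window was called in 3 of the tables and ranked 31st and 32nd for H3K27me3. Others were weak, such as Zfp992 with means of 2.75 and 2.76 normalised reads in H3K27me3 NeuN- and Suz12 NeuN+. The sites of Fbxw4 and Polr3k, whose CpG-poor sequences are printed above, thus had called windows with each of the 3 antibodies. Input libraries of each genotype and fraction were sequenced, but the values here were not compared with them. Whether input signal is also high at these sites was not tested.

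Motif words were counted on both strands, and the GC box and TATA box words differed most between the sets. The GC box GGGCGG occurred in 80 of the 125 promoter windows next to a neuronal window (64%), in 20 of the 38 others (52.6%) and in 9 of the 107 windows outside promoters (8.41%), against 73.9% of all 3270 windows. The TATA box word TATAAA ran the other way, with 4.80%, 18.4% and 20.6%, against 2.75% of all windows. The glial factor word ACAATGG of SOX proteins was in 14 of the 270 windows (5.19%) and 2.60% of all windows, and 11 of these 14 lay outside promoters. Of the 107 windows outside promoters 10.3% held it, against 6.48% of the 108 with a neuronal overlap. The ETS word CCGGAAG (7.04% against 13.2%), the PU.1 word GAGGAAG (14.8% against 16.8%), the AP-1 word TGANTCA (5.56% against 3.43%), the NFI word TTGGCA (9.26% against 8.50%) and the E-box CAGCTG (15.2% against 17.6%) are given as shares of the 270 and of all windows. None of these words contains another. A word is not a bound site.

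The 3 knockouts were each compared with WT by limma over all 3270 windows, on log2(value + 1). A window was taken as a DER if its p before adjustment fell below 0.05 and its log2 fold change exceeded 0.5 in either direction. In Mutyh-/-, 16 of the 270 windows (5.93%) were DERs, 13 higher and 3 lower, against 2.94%, 2.35% and 0.581% of all windows in either direction, higher and lower. In Ogg1-/- there were 21 (7.78%), 17 higher and 4 lower, against 3.36%, 2.91% and 0.459%. In DKO there were 14 (5.19%), 10 higher and 4 lower, against 2.29%, 1.5% and 0.795%. The knockout and WT libraries did not overlap at 27, 28 and 17 of the 270 windows, against 9.24%, 8.29% and 5.02% of all windows. With TMM scaling of the recovered reads and the edgeR quasi-likelihood test, 12 of 17, 9 of 15 and 10 of 16 DERs were higher, and the shares of all windows called were 2.87%, 3.39% and 3.39%. The median window of the whole table shifted by 0.22, 0.25 and 0.05 on the log2 scale in Mutyh-/-, Ogg1-/- and DKO in the deposited scaling, and by 0.02, 0.03 and 0.01 under TMM. The median of the 270 windows was 0.24, 0.38 and 0.14 beside this, and 0.05, 0.18 and 0.20 under TMM.

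The DERs were unevenly placed among the 270 windows. Outside promoters they made up 13, 16 and 10 of the 107 windows in Mutyh-/-, Ogg1-/- and DKO (12.1%, 15.0% and 9.35%). The 108 windows outside promoters with a neuronal overlap held 11, 16 and 10, which is 10.2%, 14.8% and 9.26%. Among the 125 promoter windows next to a neuronal window there were 2, 1 and 2, and among the other 38 there were 1, 4 and 2. The 2892 promoter windows with a neuronal overlap held 69, 73 and 51, which is 2.39%, 2.52% and 1.76%. A higher share of DERs thus went with sequence outside promoters, whether or not a neuronal window overlapped. Read depth was low for such calls, since the 270 windows held a median of 2 to 10 reads per library, and 30 to 81 of them had no read in a given library. In all, 34 windows were a DER in at least 1 contrast, 25 of them outside promoters, and 6 in all 3, which share the WT libraries. The same counts were not made over the whole table, so these have no background beside them.

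**Figure D3:**
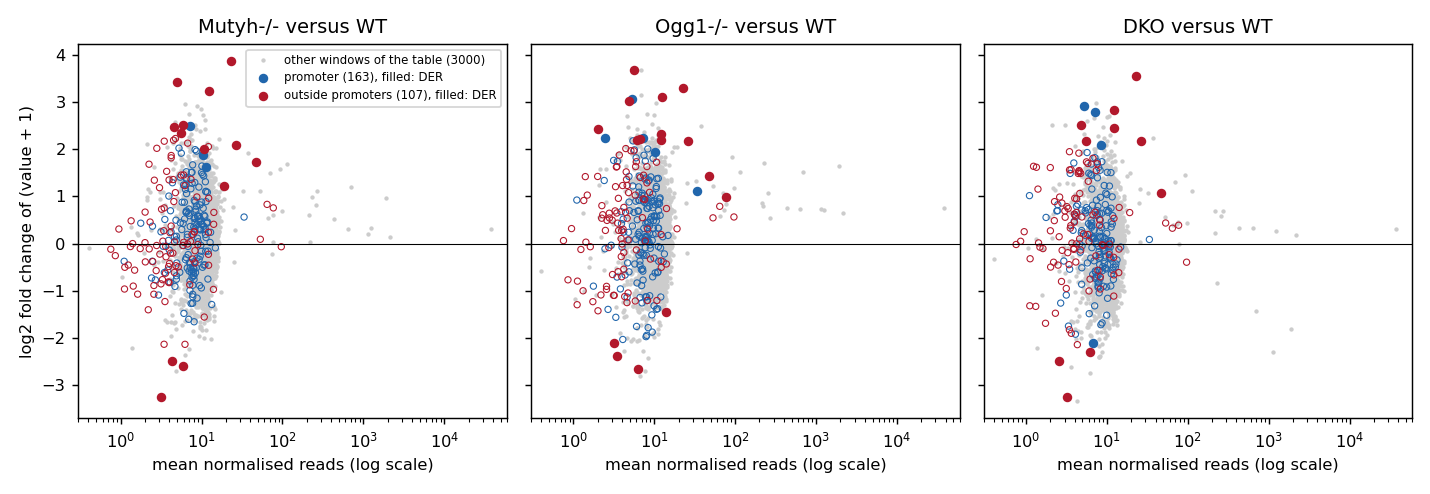
Log2 fold change of value + 1 against the mean of normalised reads (log axis) for each knockout versus WT. Grey points are the windows with a neuronal overlap, blue and red rings the promoter windows and the 107 windows outside promoters without one, and filled points are DERs. Most filled points among the rings' windows are red and lie above 0, with the Fbxw4 window at 3.87 in Mutyh-/-.

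With Benjamini-Hochberg adjustment over all windows, limma called 2 of the 270 in Mutyh-/- (Fbxw4 and Kctd16), 1 in Ogg1-/- (Fbxw4) and 1 in DKO (Fbxw4), against 0.122%, 0.0612% and 0.0306% of all windows. In Mutyh-/- 4 windows of the table were called, in Ogg1-/- 2, and in DKO Fbxw4 was the only one. The edgeR quasi-likelihood test, DESeq2 and limma on TMM-scaled reads called 0 of the 270 in any contrast, with 17, 15 and 16 of them at an unadjusted p under 0.05 by edgeR, 19, 17 and 16 by DESeq2 and 21, 24 and 21 by limma. All of these were DERs. Over all windows, DERs made up 2.87%, 3.39% and 3.39% by edgeR and 3.52%, 4.5% and 4.34% by DESeq2. By limma on TMM-scaled reads the shares were 4.83%, 5.23% and 5.6%.

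The window in intron 1 of Fbxw4 (chr19:45649970-45650370), 9437 bp from a neuronal window of the same gene, had 0, 12.6 and 0 normalised reads in WT. It had 36.2, 30.3 and 35.8 in Mutyh-/-, 8.91, 39.1 and 31.3 in Ogg1-/- and 24.1, 26.5 and 31.3 in DKO. Every Mutyh-/- and DKO library lay above the WT libraries, while 1 Ogg1-/- library fell below the highest WT value. The read counts were 0, 16 and 0 in WT and 9 to 49 in the knockouts. The log2 fold changes were 3.87 ± 0.66 in Mutyh-/- (adjusted p = 0.000514), 3.29 ± 0.66 in Ogg1-/- (adjusted p = 0.00763) and 3.56 ± 0.66 in DKO (adjusted p = 0.00328), with SE. By edgeR the fold changes were 2.53, 2.39 and 2.51, with adjusted p of 0.999 in each contrast. The limma call in Ogg1-/- was lost without WT 3 (adjusted p = 0.0676), Ogg1-/- 2 (0.313) or Ogg1-/- 3 (0.198). That in DKO was lost without any 1 of its libraries, at an adjusted p of 0.0698, 0.0959 and 0.0964, while the log2 fold changes of 3.64, 3.58 and 3.46 stayed near the value with all libraries. The call in Mutyh-/- held without each library in turn. This window is CpG-poor, 67.3% of it is masked, and some of its 36-base words occur up to 180 times in the genome.

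The window in intron 2 of Kctd16 on chromosome 18 (chr18:40308040-40308440), 50442 bp from a neuronal window of the gene, which encodes a partner of GABA-B receptors, had a mean of 47.0 normalised reads over the 12 libraries, above that of Fbxw4 at 23.0. It had 31.8, 17.3 and 13 normalised reads in WT, 79.0, 69.1 and 53.7 in Mutyh-/-, 71.3, 31.9 and 69.6 in Ogg1-/- and 39.9, 52.2 and 35.8 in DKO. All 9 knockout libraries were above the 3 WT libraries, by little in the second Ogg1-/- library. The log2 fold changes were 1.73, 1.44 and 1.08 (SE 0.39 each), with adjusted p of 0.0289, 0.245 and 0.999 by limma. The call in Mutyh-/- was lost without WT 2 (adjusted p = 0.117), WT 3 (0.339), Mutyh-/- 1 (0.444) or Mutyh-/- 2 (0.223). In Ogg1-/- the adjusted p was 0.0273 without WT 1 and 0.0482 without Ogg1-/- 2. The Kctd16 and Fbxw4 windows shared 13 words of 36 bases and an identical stretch of 48 bases. They are thus not fully separate sequences, although the stretch is shorter than a read. Whether that sharing contributes to the changes at both was not tested.

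The intergenic window assigned to Mir6356, also on chromosome 18, had 0, 1.58 and 2.36 normalised reads in WT and between 7.15 and 28.5 in the 9 knockout libraries. Its log2 fold changes were 3.24, 3.102 and 2.45 (SE 0.80), with adjusted p of 0.0895, 0.161 and 0.999. It shared a stretch of 157 identical bases with the window assigned to Myom2 on chromosome 8, so some reads of 75 bases fit both. With the window in Jarid2 on chromosome 13 it shared 70 bases, shorter than a read. The intergenic window assigned to Polr3k had 0, 7.88 and 33.1 in WT and between 14.9 and 61.1 in the knockouts, so WT 3 lay within their range. Its log2 fold changes were 2.08, 2.17 and 2.17 (SE 0.62), with adjusted p of 0.642, 0.369 and 0.743. One of its 36-base words occurs 19747 times in the genome.

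**Figure D4:**
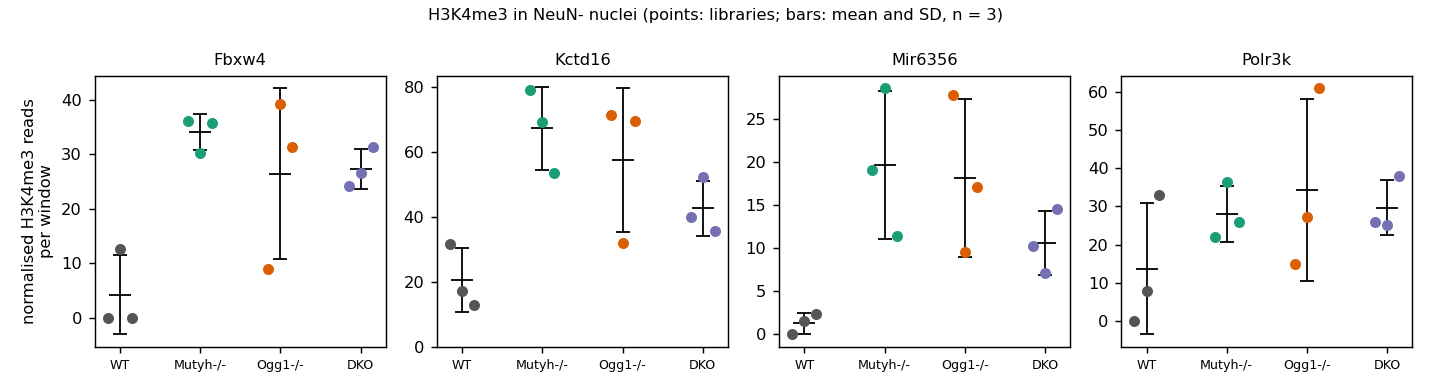
Normalised H3K4me3 reads per 401-bp window in NeuN- nuclei at the windows of Fbxw4, Kctd16, Mir6356 and Polr3k. Points are libraries and bars the mean and SD of 3 libraries, with a scale for each panel. WT has the lowest mean in every panel, with overlap of the groups for Ogg1-/- at Fbxw4 and for all 3 knockouts at Polr3k, where WT reaches 33.1.

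The remaining windows that were DERs in all 3 contrasts, at 4933438K21Rik and Dnase2a, went different ways. An exonic window of 4933438K21Rik in the chromosome 4 run had 4.15, 15.0 and 9.46 normalised reads in WT and 0 in 8 of the 9 knockout libraries, with 9.58 in the second Ogg1-/- library. The WT values rest on 3, 19 and 8 reads, and its adjusted p was 0.643, 0.999 and 0.999. At the promoter of Dnase2a, a lysosomal DNase, WT libraries had 1.38, 0 and 0, Mutyh-/- 12.4, 4.32 and 4.88, Ogg1-/- 14.9, 15.2 and 0, and DKO 21.4, 10.0 and 2.23. Dnase2a was chosen after its values were seen, and its adjusted p was 1.00, 0.999 and 0.999. A window assigned to Zfp982, 107 bp from a neuronal window, was a DER in Ogg1-/- alone. It was at 0 in WT and at 11.9, 7.98 and 17.04 in Ogg1-/-, but also at 0, 0 and 19.5 in Mutyh-/-, and its adjusted p in Ogg1-/- was 0.556.

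The few DERs among the promoter windows next to a neuronal window were 5, and these genes too were chosen after their values were seen. At Ptch1, WT libraries had 4.15, 6.30 and 0 normalised reads and DKO libraries 26, 7.86 and 11.2 (log2 fold change 2.09, unadjusted p = 0.0448). At Myc, a driver of proliferation, WT had 8.30, 9.46 and 8.27 and DKO 10.2, 0 and 0 (−2.11, unadjusted p = 0.0435), so the groups overlapped. The others were Cdk5r1, an activator of the kinase Cdk5, and Erbin in Mutyh-/-, at 1.62 and 1.88, and the chromatin remodeller Chd7 in Ogg1-/- at 1.93. None of these passed the adjusted threshold by limma.

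At Kctd16 the other NeuN- tables could be read at the same site. In H3K27me3 of NeuN- nuclei the overlapping peak had 54.3, 8.29 and 4.61 normalised reads in WT, 99.9, 49.6 and 64.7 in Mutyh-/-, 80.6, 49.0 and 59.6 in Ogg1-/- and 65.0, 50.9 and 36.3 in DKO. In Suz12 of NeuN- nuclei it had 54.9, 11.6 and 0 in WT, 70.5, 79.1 and 40.3 in Mutyh-/-, 92.9, 52.8 and 63.0 in Ogg1-/- and 33.3, 58.3 and 25.3 in DKO. In both, WT 2 and WT 3 were the lowest of the 12 and WT 1 lay among the knockouts, as it was also the highest WT library for H3K4me3. The log2 fold changes for Suz12 were 2.80, 2.95 and 2.08 with unadjusted p of 0.00168, 0.000927 and 0.0193, and none was called after adjustment by limma. With the replicate number as a block, limma gave an adjusted p of 0.036 in Ogg1-/-, although the numbers do not pair there. In NeuN+ nuclei the fold changes at Kctd16 were 0.81, 0.51 and 0.05 for H3K27me3 and 1.04, 0.78 and −0.25 for Suz12, with a smallest unadjusted p of 0.161. The difference between fractions was not tested.

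At Fbxw4 the tables differed in which contrasts moved. H3K27me3 of NeuN- nuclei had 23.8, 21.6 and 16.2 normalised reads in WT, within the range of each knockout, from 4.62 to 46.6. Suz12 of NeuN- nuclei had 2.24, 12.4 and 0 in WT, 0, 0 and 28.8 in Mutyh-/- and 34.0, 22.4 and 53.0 in Ogg1-/-, and the Ogg1-/- fold change of 3.33 had an unadjusted p of 0.00332. DKO libraries had 21.6, 26.8 and 5.75 there (log2 fold change 2.20, unadjusted p = 0.052). H3K27me3 of NeuN+ nuclei had 23.0, 16.6 and 32.7 in WT and 35.7, 88.9 and 66.8 in Ogg1-/- (log2 fold change 1.32, unadjusted p = 0.0241). All DKO libraries lay above WT there too, at 36.1, 33.0 and 42.5 (log2 fold change 0.65, unadjusted p = 0.270). None of these was called after adjustment by limma.

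**Figure D5:**
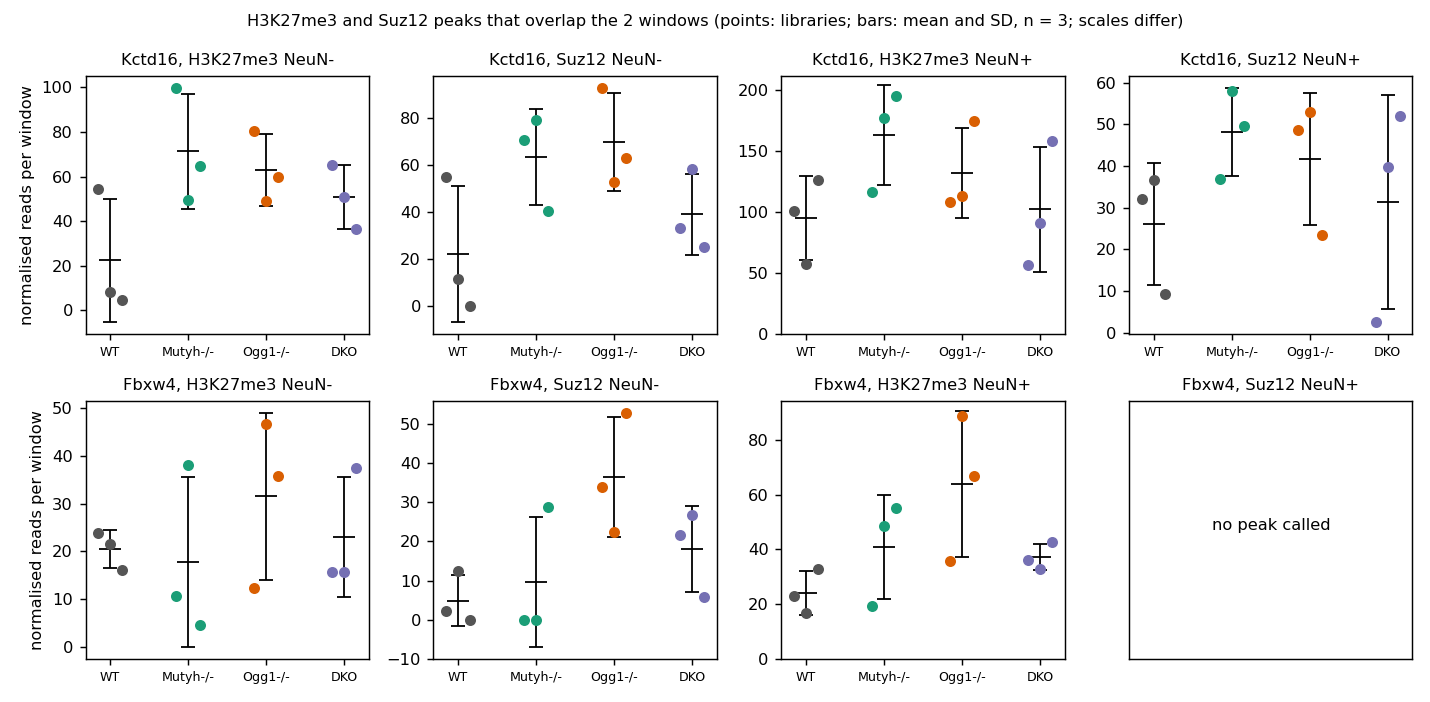
Normalised reads of the H3K27me3 and Suz12 peaks that overlap the Kctd16 window (top) and the Fbxw4 window (bottom), in NeuN- nuclei (left) and NeuN+ nuclei (right). Points are libraries and bars the mean and SD of 3 libraries. At Kctd16 in NeuN- nuclei 2 of the 3 WT libraries lie between 0 and 11.6, and at Fbxw4 no Suz12 NeuN+ peak was called.

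Over all H3K27me3 and Suz12 peaks that overlap the 270 windows, 31 DERs were found in 3 contrasts and 4 tables. None of these peaks passed the adjusted threshold by limma without a replicate block. Over whole tables that threshold was passed by 0.121%, 0.0484% and 0.0% of H3K27me3 NeuN+ peaks in Mutyh-/-, Ogg1-/- and DKO, by 0.129%, 0.0% and 0.0% of Suz12 NeuN+ peaks, and by 0.0% in each contrast of both NeuN- tables. In H3K27me3 of NeuN+ nuclei, 2, 1 and 1 of 34 peaks were DERs in Mutyh-/-, Ogg1-/- and DKO, against 3.78%, 3.82% and 3.36% of that table. In Suz12 of NeuN+ nuclei they were 4, 2 and 3 of 49, against 5.16%, 3.74% and 2.58%. For Mutyh-/- in that table, where same-numbered libraries varied together, a fit with the replicate number as a block gave 7 of 49, against 13.3% of the table. In H3K27me3 of NeuN- nuclei they were 1, 6 and 2 of 26, against 2.0%, 4.18% and 2.3%, and of the 6 in Ogg1-/-, 3 were higher and 3 lower, against 3.77% and 0.412%. In Suz12 of NeuN- nuclei they were 1, 5 and 3 of 46, against 3.85%, 11.2% and 6.73%. The Mir101c window at chr9:3015124-3015524 was lower in the knockouts in Suz12 of NeuN+ nuclei, with 25.5, 22.8 and 32.2 normalised reads in WT and between 0 and 11.9 in the knockouts. Its log2 fold changes were −4.25, −2.95 and −3.55 with unadjusted p of 0.000724, 0.0189 and 0.00471, and none was called after adjustment by limma. At 3 other Mir101c windows of that table the values were not lower in all 3 knockouts. The log2 fold changes were 0.68, 0.99 and 0.73 at the window starting at 3021952, which shares 195 words of 36 bases with it, 0.96, 0.96 and 1.87 at 3037995, and 1.58, −0.80 and 0.02 at 3006640, with a smallest unadjusted p of 0.119. In Suz12 of NeuN- nuclei the window at 3015124 had 28.0, 35.7 and 24.7 in WT, within the knockouts' range of 6.85 to 59.1, and the difference between fractions was not tested.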

How the data were processed

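H3K4me3, H3K27me3 and Suz12 ChIP-seq peaks of NeuN+ and NeuN- hippocampal nuclei were analysed in 6 tables, with 12 libraries each (4 genotypes, 3 pools of 5 mice). Per the methods and processing notes, the authors aligned 75-base reads to GRCm38 with Bowtie2 2.3.5.1, called H3K4me3 peaks with epic2 (windows of 100 bp, 3 gaps), kept peaks found in at least 2 replicates and counted reads in 401-bp windows with DiffBind 3.10.1. The deposited values are a signal, reads divided by one factor per library. Every value was a whole multiple of the worth of 1 read within 0.01 (100.0%), so read counts were recovered, and edgeR 4.0.16 and DESeq2 1.42.0 on them are alternatives. Windows were annotated by the authors with ChIPseeker 1.36. Each knockout was compared with WT by limma 3.58.1 on log2(value + 1), with all 12 libraries of a table in one fit, a pseudocount of 1, no filter on low values and Benjamini-Hochberg adjustment over the table. The test was checked on counts simulated with a single setting of spread for all windows, and with changes only above a minimum mean. Windows with a larger spread, and changes at low means, were not covered by that check. Alternatives were TMM scaling, robust moderation, a pseudocount of 5, leaving out low-value or repeat windows, a replicate block, leaving out libraries, and larger gaps to a neuronal window. Windows named with their values were those at marker genes, the 10 with the highest mean, those called after adjustment, in each contrast the 3 DERs with the smallest p among those whose libraries did not overlap WT, and the 10 with the largest H3K27me3 or Suz12 signal. Other genes named as examples of a set were chosen after their values were seen. Replicate numbers were taken to pair a knockout with WT where all 3 same-numbered pairs correlated over 0.1 after removal of genotype means, which held for Mutyh-/- in Suz12 NeuN+ (0.388, 0.186 and 0.119). The members and lists were chosen with earlier results of these data known. Intervals between genotypes rest on 3 pools, and low read numbers limit their precision.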

Additional observations from a re-analysis of the deposited data

How the results depend on the processing

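The number of windows without a neuronal overlap was 127 when no neuronal window within 1 kb was allowed and 97 at 5 kb. DERs among the 270 numbered 16, 21 and 14 in Mutyh-/-, Ogg1-/- and DKO (5.93%, 7.78% and 5.19%), against 2.94%, 3.36% and 2.29% of all windows. With low-value windows left out they numbered 7, 8 and 5 of the 93 tested (7.53%, 8.6% and 5.38%). The shares of all windows tested were then 2.81%, 2.77% and 1.75%. Leaving out repeat windows gave 12 of 234 in Ogg1-/- (5.13%), against 2.96% of all windows tested. The share of DERs that were higher moved with scaling, from 13 of 16, 17 of 21 and 10 of 14 to 13 of 21, 13 of 24 and 13 of 21 by limma on TMM-scaled reads and 11 of 19, 10 of 17 and 10 of 16 by DESeq2. Adjusted calls fell from 2, 1 and 1 to 0 in each contrast by limma on TMM-scaled reads, edgeR and DESeq2, and with repeat windows left out. That last setting removes the Fbxw4 window itself but keeps Kctd16, whose log2 fold change in Mutyh-/- stayed at 1.73 while its adjusted p rose to 0.185. In Mutyh-/- 1 call was left under robust moderation, a pseudocount of 5 or the low-value filter. In Ogg1-/- 0 were left with a pseudocount of 5, with 23 windows at an unadjusted p under 0.05. All of these were DERs (8.52%, against 3.27% of all windows). Without the 4 libraries numbered 3, an alternative chosen after seeing the data, Ogg1-/- had 0 calls with 16 windows at an unadjusted p under 0.05. These were all DERs (5.93%, against 2.26% of all windows). DERs in the H3K27me3 and Suz12 tables went from 31 to 19 both without those libraries and with repeat windows left out. Leaving out 1 library at a time gave 11 to 23, 13 to 24 and 10 to 26 DERs among the 270. The shares of all windows were then 1.9% to 4.59%, 2.02% to 4.68% and 1.93% to 7.06%. The share of the 270 came closest to that of all windows in Mutyh-/- without WT 1, at 4.81% against 4.59%. Adjusted calls numbered 1 to 2, 0 to 2 and 0 to 2, against 1 to 4, 1 to 5 and 0 to 3 over all windows. The other tables had 22 to 46 DERs. No share of all their peaks stands beside these counts or the 19 above. DKO had 26 DERs without DKO 1 (9.63%, against 7.06% of all windows). Apart from removed windows, the cause of these changes was not tested.

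Same-numbered H3K4me3 NeuN- libraries correlated weakly after removal of genotype means, from 0.00759 to 0.178 with 4 of 18 pairs over 0.1, so the numbers were not taken as pairs there. A replicate block gave 30, 31 and 19 DERs (11.1%, 11.5% and 7.04%), against 5.72%, 5.5% and 4.46% of all windows. It gave 3, 1 and 1 adjusted calls by limma, against 7, 4 and 2 in the whole table. The added call was Mir6356 in Mutyh-/- (adjusted p = 0.0363). In the other tables the pairs over 0.1 were 13 of 18 for Suz12 NeuN+, 9 of 18 for H3K27me3 NeuN- and 3 of 18 in each of the remaining ones. All 3 pairs of a knockout with WT were over 0.1 only for Mutyh-/- in Suz12 NeuN+. The block gave 51 DERs over the other tables, and 1 adjusted call, at Kctd16 in Suz12 NeuN- of Ogg1-/-, whose numbers do not pair. The share of DERs over all peaks rose with the block in each contrast of these tables as well. In Ogg1-/- it went from 3.74% to 12.6% for Suz12 NeuN+ and from 4.18% to 8.01% for H3K27me3 NeuN-. In Mutyh-/- it went from 5.16% to 13.3% for Suz12 NeuN+ and from 3.85% to 4.17% for Suz12 NeuN-. Low depth, with a median of 2 to 10 reads per window and library, limits all comparisons of single windows.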
